A study of Ceratotherium simum with 9 samples.

Results

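MiR-126 is a vascular miRNA made from 1 hairpin, and both of its arms were read in these libraries under the names eca-miR-126-3p and eca-miR-126-5p. Both names were taken from the deposited table by name alone, as 2 of 3886 mature miRNA names, by a rule that uses no measured value, although earlier results of these data were known when they were chosen. Both passed the filter for testing, which 417 names did. FF-EVs (extracellular vesicles of follicular fluid) came from 2 southern white rhinoceros females that had received chlormadinone acetate and then the GnRH analog Deslorelin before follicles were aspirated. The G group held growing follicles of 11 to 17 mm, the D group dominant follicles of 18 to 29 mm and the P group pre-ovulatory follicles of 30 to 34 mm, with 3 small-RNA libraries each (n = 3). All 3 groups share the stimulation and the pooling of EVs over both animals, and no unstimulated group was analysed here. The methods call the 3 pools of a stage technical replicates once and biological replicates elsewhere. The tests therefore measure the scatter among these libraries, and that scatter may be purely technical.

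The miR-126 hairpin lies in an intron of EGFL7, a gene expressed in endothelial cells, in mammals and zebrafish. In mouse and zebrafish, miR-126-3p represses SPRED1 and PIK3R2, inhibitors of signaling downstream of VEGF, and its loss impairs vessel integrity. The 5p arm is less abundant in most tissues and represses DLK1 in mouse endothelium. Platelets and some blood progenitors also carry miR-126, so the miRNA marks vessels and blood alike. In the antral follicle, vessels are confined to the theca, and the granulosa layer and the fluid have none until ovulation. In the RefSeq annotation of the white rhinoceros (assembly ASM5780239v1), EGFL7 lies between the genes NOTCH1 and AGPAT2.

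The mature sequence of the 5p arm is shown because the arms are told apart only by sequence. It was read from a list in the study's supplement, and the capitals mark the seed, bases 2 to 8, which pairs with targets.
eca-miR-126-5p: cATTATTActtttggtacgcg
It is 21 bases long with 8 G or C bases (38.1%), the 9th lowest G and C content of the 44 miRNA sequences in that list, whose median was 46.5%. No other sequence in the list had the same seed.

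The libraries held 18384 to 149281 recovered miRNA reads, and a single read was worth 5.64 CPM in G3, the lowest value, and as much as 38.6 CPM in P2. Of these, 3 libraries depart from the rest. A single miRNA, eca-miR-148a, took 71.8% of the reads of D2, and bta-miR-11980 took 34.97% of those of G1. G3 had 481 miRNAs above 10 CPM, against 309 to 348 in the others. Values are TMM-adjusted CPM, as deposited, and group values are mean ± SD.

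Eca-miR-126-3p was an abundant miRNA of FF-EVs at every stage. It was highest in the D group, intermediate in the G group and lowest in the P group. In G it had 7486 CPM in G1, 7598 in G2 and 10288 in G3, from 274, 227 and 1823 reads. In D it had 10907 CPM in D1, 16096 in D2 and 11651 in D3, from 401, 744 and 507 reads. In P it had 5549.8 CPM in P1, 4445 in P2 and 5236 in P3, from 297, 115 and 208 reads. Each D library thus lay above each G library, and each G library above each P library, with D2 the highest and P2 the lowest. The gap between the highest G library (G3) and the lowest D library (D1) was small beside the range within either group.

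Eca-miR-126-3p averaged 8457 ± 1587 CPM for G, 12885 ± 2806 CPM for D and 5077 ± 570 CPM for P (SD, n = 3). By mean CPM it ranked 25th of all miRNAs in G, 15th in D and 35th in P. Within single libraries its rank ran from 15 in D2 to 36 in P2.

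**Figure D1:**
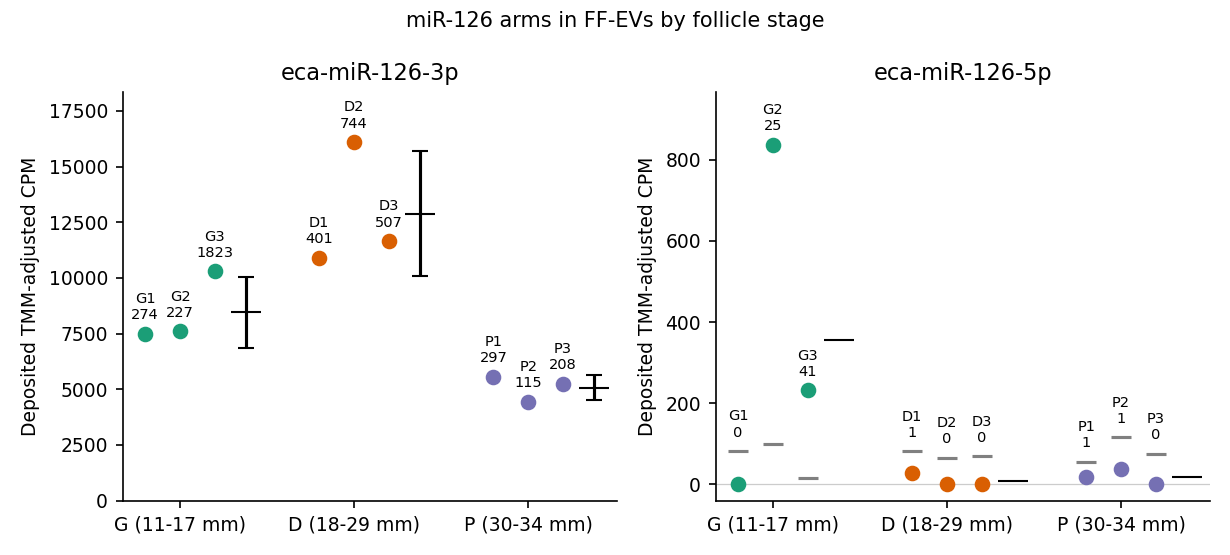
Deposited TMM-adjusted CPM (vertical axes, linear) of eca-miR-126-3p and eca-miR-126-5p in each library, by follicle stage, with the library and its reads written above each point. Black marks are group means, with SD bars for the 3p arm, and grey dashes in the 5p panel give the level of 3 reads. The 3p arm lies between 10907 and 16096 CPM in D and between 4445 and 5549.8 CPM in P, and the 5p arm rises above 3 reads in G2 and G3 and in no other library.

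In P vs. D, eca-miR-126-3p had a log2 fold change of -1.33 (SE 0.48, 95% interval -2.36 to -0.29) on the log2(CPM + 10) scale, with an unadjusted p of 0.0156. The adjusted p over all 417 miRNAs was 0.224 by limma, so this fold was not called at the threshold of 0.1. In the same comparison 2.64% of the tested miRNAs were called, and the replicates of 22.3% did not overlap, as was so for eca-miR-126-3p. The call depended on the estimate of the spread. With the G libraries left out of the fit, the adjusted p was 0.0676 by limma, and by DESeq2 on the recovered reads it was 0.0139 with a log2 fold change of -1.31, so both called it. Those fits called more miRNAs in all, 5.04% of the tested ones without G and 11% by DESeq2. edgeR gave -1.34 with an adjusted p of 0.268 and did not call it, with 3.36% of the tested miRNAs called.

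In G vs. D, where negative values mean lower in G, the log2 fold change of eca-miR-126-3p was -0.60 (SE 0.48, 95% interval -1.63 to 0.43, adjusted p = 0.657 by limma). Here 0.959% of the tested miRNAs were called, and 14.6% had replicates that did not overlap. In P vs. G it was -0.73 (SE 0.48, 95% interval -1.76 to 0.31, adjusted p = 0.729 by limma), with a background of 0.48% called and 9.59% not overlapping. Both 95% intervals included 0, although the replicates did not overlap in either comparison.

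The levels of eca-miR-126-3p over the 3 stages were also compared by an exact permutation test over the 280 ways to divide the 9 libraries into 3 groups of 3. The p was 0.00357, the smallest that this test can give, and 5 of the 417 tested miRNAs reached it. After Benjamini-Hochberg adjustment over the 417 it was 0.271. An unadjusted p under 0.05 in this test was found for 8.87% of the tested miRNAs. The order itself, noticed after the values were seen, was less frequent. All 3 groups stood apart from one another in 1.2% of the tested miRNAs, and with every D library above every G library and every G library above every P library in 0.24%, which is 1 miRNA of 417, eca-miR-126-3p. Both shares are lowered by rare miRNAs, since one unread in libraries of more than 1 group, such as hsa-miR-766-3p, cannot have all 3 groups apart.

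Both the level and its order depended on the scaling of D2 and G1. As a share of all miRNA reads, eca-miR-126-3p took 0.472% in G1, 1.11% in G2 and 1.23% in G3. It took 1.24% in D1, 0.498% in D2 and 1.33% in D3, and 0.628% in P1, 0.626% in P2 and 0.741% in P3. On that scale D2, the highest library in CPM, fell below all 3 P libraries, and the permutation p over the 3 stages was 0.596 (exact). The log2 fold change in P vs. D was then -0.50 (adjusted p = 0.745 by limma). When eca-miR-148a and bta-miR-11980 were taken out of the totals, the shares were 0.854%, 1.23% and 1.29% in G, 1.46%, 1.78% and 1.67% in D, and 0.731%, 0.706% and 0.856% in P. On this scale D again lay above G and P without overlap, and G1 lay just below P3. This alternative was added after the data had been seen.

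The median change of all tested miRNAs moved with the scaling as well. On the deposited scale it was 0.43 for G vs. D, -0.28 for P vs. G and 0.16 for P vs. D, and with total-sum scaling 0.77, -0.03 and 0.70. Relative to these medians, eca-miR-126-3p stood at -1.49 in P vs. D on the deposited scale and -1.20 with total-sum scaling. The corresponding values were -1.03 and -0.88 in G vs. D, and -0.44 and -0.36 in P vs. G. Rescaling a library moves all its miRNAs nearly alike, so the closeness of these values on both scales follows from their construction.

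**Figure D2:**
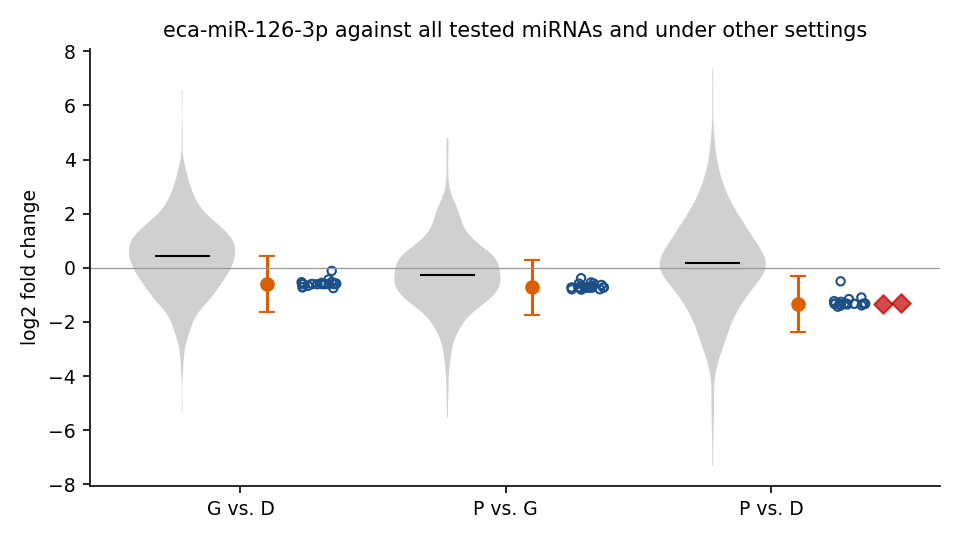
Log2 fold change (vertical axis) of eca-miR-126-3p in the 3 comparisons, with its limma estimate and 95% interval in orange and 21 alternative settings per comparison, as open blue circles or, where called, red diamonds. Grey shapes show the distribution over the 417 tested miRNAs with a black line at the median. The estimate for P vs. D is -1.33, and the 2 called alternatives lie next to it in value.

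The 5p arm was rare, and its reads came almost wholly from 2 growing-follicle libraries. Eca-miR-126-5p had 0 reads in G1, 25 reads (837 CPM) in G2 and 41 reads (231 CPM) in G3. In D it had 1 read (27.2 CPM) in D1 and 0 in D2 and D3. In P it had 1 read in P1 (18.7 CPM), 1 read in P2 (38.6 CPM) and 0 in P3. Of its 69 reads, 66 were thus in G, where the 3 replicates disagreed with one another. The 0 of G1 allows up to 82.0 CPM (3 reads), which is below both G2 and G3. This limit covers counting error only, and why G1 had no read was not tested. A count of 0 allows up to 64.9 CPM in D2, 68.9 CPM in D3 and 75.5 CPM in P3.

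Eca-miR-126-5p averaged 356 ± 432 CPM for G, 9.07 ± 15.7 CPM for D and 19.1 ± 19.3 CPM for P (SD, n = 3), with overlapping replicates in all 3 comparisons. None was called. In G vs. D the log2 fold change was 3.03 (SE 1.49, 95% interval -0.18 to 6.25, adjusted p = 0.469 by limma). In P vs. G it was -2.40 (SE 1.49, 95% interval -5.61 to 0.82, adjusted p = 0.729 by limma). In P vs. D, with 2 reads against 1, it was 0.64 (SE 1.49, 95% interval -2.58 to 3.85, adjusted p = 0.901 by limma), and a difference was not detectable at this depth.

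Single libraries of the G group decided these values. Without G1 the log2 fold change of eca-miR-126-5p was 4.87 in G vs. D (adjusted p = 0.111 by limma) and -4.23 in P vs. G (adjusted p = 0.103 by limma). Without G2 it was 1.66 and -1.03. The exact permutation test over the 3 stages gave p = 0.293, and p = 0.025 without G1. Pooled over the libraries of a group, the scaled reads in G were 34.3 times those in D, with an exact 95% interval of 5.94 to 1374, and those in P were 0.062 times those in G (0.00735 to 0.233). These intervals cover counting error only and not the spread between G1, G2 and G3.

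The 3p arm outnumbered the 5p arm in every library, by 4596 reads to 69 in all. The ratio of 3p to 5p reads was 9.08 in G2 and 44.5 in G3. It was 401 in D1, 297 in P1 and 115 in P2, each with 1 read of the 5p arm. Where no 5p read was found, the ratio was at least 91.3 in G1, 248 in D2, 169 in D3 and 69.3 in P3, taking 3 reads as the floor. G2 was therefore the library with the most even arms.

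Counted as a share of both arms, the 5p arm took 9.92% in G2 (exact Clopper-Pearson 95% interval 6.52 to 14.3%) and 2.20% in G3 (1.58 to 2.97%). In G1 it took 0 of 274 reads, with an upper limit of 1.34%, which lies below the intervals of G2 and G3. The shares in the 3 D libraries were at most 0.249%, and in the 3 P libraries at most 0.862%, in P2, where the interval of 0.0218 to 4.71% reached past the value of G3. By counting error, G2 stood apart from every other library.

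**Figure D3:**
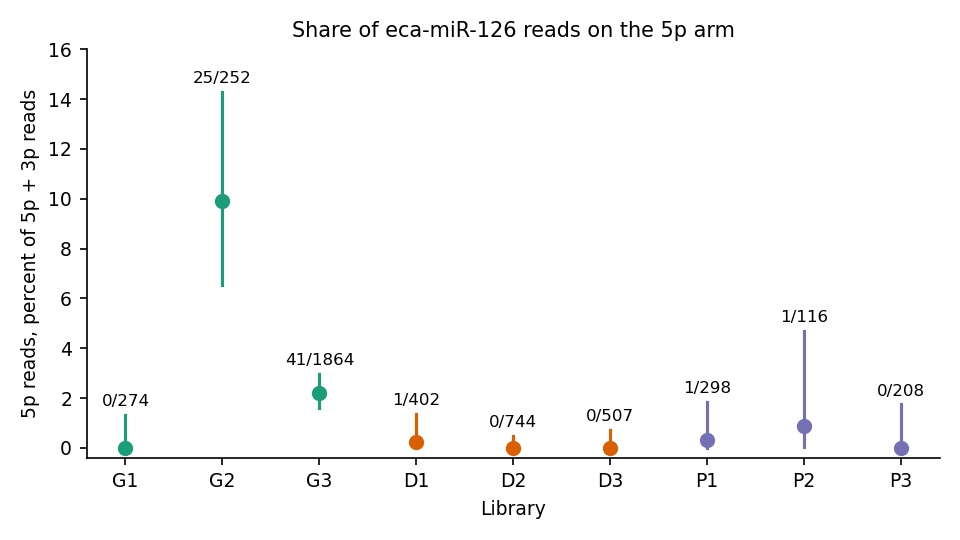
Reads of eca-miR-126-5p as a percent of the reads of both arms (vertical axis, linear) in each library, with exact Clopper-Pearson 95% intervals and the reads of the 5p arm over both arms above each. G2 has 9.92% and G3 2.20%, and every other library has less than 1%.

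On the log2 scale, with 0.5 reads added to each arm, the ratio averaged 5.91 ± 3.00 for G, 9.53 ± 1.30 for D and 7.53 ± 1.22 for P (SD, n = 3). The exact permutation test over the 3 stages gave p = 0.168. Of the 3 pairwise differences, G vs. D was -3.63 (exact p = 0.2, adjusted over the 3 tests 0.3), P vs. G was 1.63 (exact p = 0.5, adjusted 0.5) and P vs. D was -2.00 (exact p = 0.2, adjusted 0.3). These two-sided tests of 3 against 3 libraries cannot go below 0.1. Without G1, which had the ratio of a D or P library, the p over the 3 stages was 0.0143 (exact permutation). No difference in arm ratio between stages was thus shown beyond the spread within G with all libraries in the test.

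The arms of miR-126 were next compared with those of other hairpins. Among the 78 pairs of 3p and 5p entries with the same species and number and at least 10 reads in all, the 3p arm was the major one in 40. Ordered by the ratio of 3p to 5p reads, with 0.5 reads added to each arm, miR-126 was 11th of the 78, and 3rd of the 29 equine pairs. Its neighbors in that order were bta-miR-219 above, with 34 reads to 0, and eca-miR-542 below, with 24 reads to 0. Ordered instead by the ratio of major to minor arm, whichever arm was major, it was 25th of the 78, with 14 pairs of a major 5p arm ahead of it. The ratio of miR-126 was 66.6. The median ratio of major to minor arm was 10.3 in the 44 pairs with both arms read, which leaves out the 34 pairs with an unread arm.

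The higher share of the minor arm in G was not particular to miR-126. The pooled 5p share of miR-126 was 2.76% in G, 0.0605% in D and 0.322% in P. Of 59 pairs read at all stages, the share of the minor arm was highest in G in 10 (16.9%). That percentage is lowered by pairs whose minor arm was not read at any stage, such as eca-miR-148b, which could not be highest in G. Of the 21 with at least 10 reads of the minor arm it was highest in G in 6, including miR-126, and in others such as bta-miR-22, with 17.3% in G, 1.05% in D and 1.38% in P. These shares were pooled over libraries of unequal depth and were not tested.

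Besides both members, 1 entry named miR-126 had reads, bta-miR-126-3p, with 124 reads. It had 75 reads in G3 (423 CPM), 41 in P1 (766 CPM) and 2 in P2 (77.3 CPM), and 1 read in each of the other 6 libraries. Its share of all miR-126-3p reads was 12.1% in P1 (exact 95% interval 8.85 to 16.1%), 3.95% in G3 (3.12 to 4.93%) and between 0.134 and 1.71% elsewhere. Equine and bovine entries can take reads of the same molecule, since the authors allowed mismatches, and how they were divided was not tested. The bovine entry was not called in any comparison, with log2 fold changes of 1.39 for G vs. D, 0.59 for P vs. G and 1.98 for P vs. D. Adding it to eca-miR-126-3p left the latter uncalled in all 3 comparisons.

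Across the 9 libraries, no shared variation of the arms was seen. The 5p arm had 0 or 1 read in every library except G2 and G3, so its r can hardly show whether the arms vary together. The Pearson r between eca-miR-126-3p and eca-miR-126-5p on log2(CPM + 10) was -0.10, and in the order of likeness to the 3p arm the 5p arm was 227th of the 416 other tested miRNAs. The libraries share pools of the same 2 animals and differ in depth, so r is given only as a description. The 5 miRNAs most like eca-miR-126-3p were bta-miR-27a-3p (r = 0.92), eca-miR-93 (0.89), bta-miR-142-5p (0.89), eca-miR-590-3p (0.85), which had 4 reads in all, and eca-miR-142-3p (0.84). MiR-27a belongs to the miR-23a cluster, miR-93 to the miR-17 family of cell proliferation, and miR-142 is made in cells of the blood lineages.

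Bta-miR-27a-3p, the first of these, had 1858, 1004 and 1383 CPM in G1, G2 and G3, and then 1985, 3505 and 1769.6 CPM across the D libraries. For P the values were 206, 193 and 227 CPM. The P libraries lay far below all others, and D2 was the highest, as for eca-miR-126-3p. It was lower in P vs. D by limma, with a log2 fold change of -3.41 (SE 0.69, adjusted p = 0.0359). Bta-miR-142-5p fell by 4.72 in that comparison (SE 0.95, adjusted p = 0.0359 by limma). Without D2 bta-miR-27a-3p had -3.11, bta-miR-142-5p -4.12 and eca-miR-142-3p -5.002, each with an adjusted p of 0.14 by limma, and none was called. The share of all tested miRNAs called in P vs. D was then 0.24%. Eca-miR-93 had -2.44 (SE 0.97, adjusted p = 0.265 by limma) and was not called.

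The 5 miRNAs most like eca-miR-126-5p were hsa-miR-378c (r = 0.92), bta-miR-12034, hsa-miR-766-3p and hsa-miR-509-3-5p (0.91 each) and eca-miR-153 (0.91). Each had reads only in G2 and G3, 3 to 6 in all, so that likeness to the 5p arm here means being read in those 2 libraries.

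**Figure D4:**
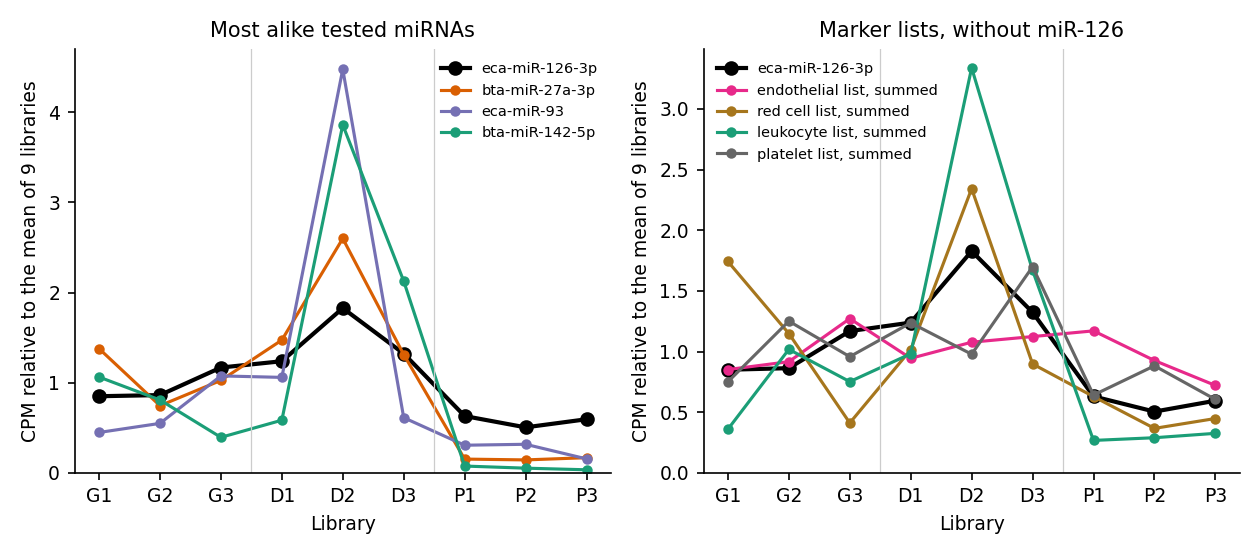
CPM of each library divided by the mean of the 9 libraries (vertical axes, linear), with eca-miR-126-3p in black in both panels. The left panel shows 3 of the 5 miRNAs most like it and the right panel the summed CPM of marker lists without miR-126. D2 is the highest library for eca-miR-126-3p, for the 3 alike miRNAs and for the red cell and leukocyte lists, and the endothelial list lies between 31162 and 54986 CPM, which is between 1.44% (D2) and 6.58% (G3) of the reads.

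The other endothelial and angiogenic miRNAs of the list had medians below that of all tested miRNAs in the 3 comparisons. Over all tested miRNAs, limma called 2.64% in P vs. D, 0.959% in G vs. D and 0.48% in P vs. G. Of that list, 27 entries other than the members were tested, among them bta-miR-126-3p. In P vs. D, limma called 1 of them lower, bta-miR-27a-3p, and 0 higher. At the shares above, 1 or 0 calls among 27 entries show nothing particular to the list. There were 11 positive and 15 negative changes in P vs. D, with a median log2 fold change of -0.40 against 0.16 over all tested miRNAs. By edgeR 1 entry and by DESeq2 3 entries of the 27 were called in P vs. D, where these tools called 3.36% and 11% of all tested miRNAs. An unadjusted p under 0.05 by limma was found for 5 of the 27, against 61 of all 417 tested miRNAs. In G vs. D 0 were called by limma, edgeR or DESeq2, and 0 had an unadjusted p under 0.05 by limma, against 39 of all tested miRNAs. The median was -0.15 against 0.43. EdgeR called 0.959% and DESeq2 3.36% of all tested miRNAs in that comparison. In P vs. G 0 were called by limma or edgeR and 1 by DESeq2. An unadjusted p under 0.05 by limma was found for 3, against 31 of all tested miRNAs, and the median was -0.55 against -0.28. EdgeR called 0.719% and DESeq2 3.36% of all tested miRNAs there. Without G1, 1 entry was called in P vs. G by limma, against 4.56% of all tested miRNAs. The summed level was taken over the whole list, tested or not, without any miR-126 entry. It ran from 36827 to 54986 CPM in G, from 40825 to 48582 CPM in D and from 31162 to 50621 CPM in P, so that the 3 groups overlapped.

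The 4 most abundant entries of the list besides eca-miR-126-3p showed different orders of the stages. Eca-miR-10b, a HOX-cluster miRNA with a role in angiogenesis in zebrafish, had changes of -0.58 for G vs. D, 1.55 for P vs. G and 0.97 for P vs. D. Eca-miR-27b, of the miR-23b cluster, had 0.28, -1.17 and -0.90. Eca-miR-92a, of the miR-17-92 cluster, which represses angiogenesis in mouse, had -0.29, -1.18 and -1.47. Eca-miR-10a had 0.85, -0.35 and 0.50. None of these was called by limma, with adjusted p from 0.242 to 0.929.

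Since miR-126 is also carried in blood, the levels of blood miRNAs are given beside it. The tested leukocyte entries were of miR-142, miR-146a, miR-150, miR-155 and miR-223, and the red cell entries of miR-451 and miR-486. The platelet entries were of miR-21, miR-24, miR-197 and miR-223. MiR-191 was also on the planned platelet list, but the tested entry eca-miR-191a was not matched by name. It is left out of the platelet counts, medians and sums. MiR-223 is thus in both the leukocyte and platelet lists, and miR-24 is also in the endothelial list. Several entries name the same miRNA and are not separate markers. In pooled EVs, fewer vesicles of one cell type and less miRNA in each vesicle cannot be told apart. Of 10 tested leukocyte entries, all 10 had negative changes in P vs. D, 2 of them called lower, bta-miR-142-5p and eca-miR-142-3p, with a median of -2.93. EdgeR called 2 and DESeq2 5 of these 10, and 4 had an unadjusted p under 0.05 by limma. Of 7 platelet entries, all 7 were negative with a median of -1.15, and 0 were called by limma, edgeR or DESeq2 or had an unadjusted p under 0.05. Of 5 red cell entries, 4 were negative with a median of -2.64, and 1 was called lower, eca-miR-486-5p, with -2.90 (adjusted p = 0.0476 by limma). EdgeR called 1 and DESeq2 2 of these 5, and 3 had an unadjusted p under 0.05 by limma. Over all tested miRNAs, limma called 2.64%, edgeR 3.36% and DESeq2 11% in P vs. D. Of all 417, 61 had an unadjusted p under 0.05 by limma there. Without D2, limma called 0 entries of these lists and 0.24% of all tested miRNAs, and eca-miR-486-5p had -2.48 with an adjusted p of 0.14.

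The summed level of the leukocyte list was 1585 to 4485 CPM in G, 4325 to 14711 CPM in D and 1177 to 1435 CPM in P. That of the platelet list was 34914 to 58177 CPM in G, 45497 to 79033 CPM in D and 28142 to 41045 CPM in P. That of the red cell list was 37593 to 159300 CPM in G, 82089 to 214200 CPM in D and 33508 to 57460 CPM in P. Most of the platelet sum was miR-21, with means over all libraries of 34414 CPM for eca-miR-21 and 8451 CPM for bta-miR-21-5p. In deposited CPM all 3 lists, like eca-miR-126-3p, lay higher in every D library than in every P library. As a share of reads this did not hold for the platelet list, which took 1.41% in D2 and 3.37, 5.78 and 3.98% in P1, P2 and P3. Their part in the result for eca-miR-126-3p was not tested.

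Single blood miRNAs also varied within a stage. The ratio of reads of bta-miR-451, a red cell miRNA, to eca-miR-23a, which is used beside it as a measure of hemolysis in human plasma, was 5153 in G1, 106 in G2 and 22.8 in G3. In D1 to D3 it was 24.9, 246 and 195. For P1 to P3 it was 644, 152 and 502. In G1 and P3 the ratio rests on 1 and 3 reads of eca-miR-23a. It leaves out bta-miR-23a, another tested entry of miR-23a, with 179 reads against 420 for eca-miR-23a. For bta-miR-23a every G library lay above every P library (log2 fold change -2.10 in P vs. G, adjusted p = 0.55 by limma, not called). Eca-miR-23a in G1, at 27.3 CPM, instead lay below every P library. The ratio of G1 may therefore depend on the entry used. Eca-miR-223, a myeloid and platelet miRNA, had 2, 4 and 32 reads in G, 4, 2 and 4 in D, and 0, 1 and 1 in P. These are 50 reads in all, against 328 for hsa-miR-223-5p, the other tested entry of miR-223. The log2 fold change in G vs. D was -3.15 for hsa-miR-223-5p (adjusted p = 0.469 by limma) and 0.49 for eca-miR-223, and neither was called. G1, the library with the highest ratio to eca-miR-23a, was also the one growing-follicle library without a read of eca-miR-126-5p, and that link was not tested.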

How the data were processed

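The deposited values are signal values: CPM of mature miRNA names, which the authors adjusted by TMM after counting trimmed reads against equine, bovine and human miRBase entries in CLC Genomics Workbench, with equine entries first. Library sums therefore differ. The submitters' processing notes also name bcl2fastq and DESeq2. Dividing each library by its smallest value gave whole reads for 100% of values, within 0.01 of a read.

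A miRNA was tested if 2 or more replicates of some group exceeded 10 CPM. Log2(CPM + 10) of all 9 libraries was fitted by group in limma 3.58.1 under R 4.3.3, using a trended prior variance, and p-values were adjusted by Benjamini-Hochberg over the 417 tested. A miRNA was called when the adjusted p was below 0.1 and the fold change 2 or more. edgeR 4.0.16 and DESeq2 1.42.0 on recovered reads were alternatives. Arm ratios were compared by exact permutation, with Python 3.11.15 and numpy 2.4.6. The limma fit and the permutation test over the 3 stages were run on simulated data, and the other steps were not. The intervals of shares and pooled ratios and the floor of 3 reads cover counting error only. The limma intervals come from the spread between libraries.

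Named were both members, other miR-126 entries, the 5 miRNAs most alike each by Pearson r, neighbors in arm ratio, members of the endothelial list called or among its 4 most abundant, and blood markers. Members and lists were chosen with earlier results of these data known. Granulosa and stroma lists were matched as well. In P vs. D, 0 of 9 granulosa and 0 of 11 stroma entries were called by limma, with medians of 0.80 and 2.25. At an unadjusted p under 0.05 these were 0 and 4, against 61 of the 417 tested miRNAs. By edgeR they were 0 and 1, and by DESeq2 0 and 4. A sequence for the 3p arm was not used here.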

Additional observations from a re-analysis of the deposited data

How the results depend on the processing

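Of 195 alternative values computed for the miR-126 arms, 190 were counted as unchanged and 5 were not. Fold changes were judged by direction and call, tests over the 3 stages by p only, and pairwise arm ratios by direction only. Some values could not change. Leaving out a library of the third group repeats the main difference, as for the arm ratio in G vs. D without P1 (-3.63). The 190 are therefore not all separate checks. Fitting only the 2 groups compared (-1.33, adjusted p = 0.0676 by limma) and DESeq2 on recovered reads (-1.31, adjusted p = 0.0139) called eca-miR-126-3p in P vs. D, where the adjusted p ranged from 0.0139 to 0.745 over 21 alternatives. Total-sum scaling raised the exact permutation p of its level over the 3 stages to 0.596. Leaving out G1 lowered that of eca-miR-126-5p to 0.025 and that of the arm ratio to 0.0143. With each library left out in turn, eca-miR-126-3p ranged from -0.75 to -0.43 (G vs. D), from -0.81 to -0.58 (P vs. G) and from -1.44 to -1.16 (P vs. D), and its permutation p from 0.00357 to 0.0107. Eca-miR-126-5p ranged from 1.66 to 4.87 (G vs. D), from -4.23 to -1.03 (P vs. G) and from 0.13 to 1.27 (P vs. D), and its permutation p from 0.025 to 0.679. By edgeR it had 5.06 in G vs. D (adjusted p = 0.283) and -4.15 in P vs. G (0.407), and by DESeq2 5.46 (0.198) and -4.38 (0.268). With 1 or 50 CPM added before the log it had 4.25 or 2.00 in G vs. D, -2.65 or -1.79 in P vs. G and 1.60 or 0.22 in P vs. D by limma, and none was called. The log2 arm ratio ranged from -5.22 to -2.25 (G vs. D), from 0.26 to 3.23 (P vs. G) and from -2.73 to -1.36 (P vs. D), and its permutation p over the 3 stages from 0.0143 to 0.35. The cause of these shifts was not tested. A filter of 10 CPM in all 3 replicates left eca-miR-126-5p out, so that it gave no value.

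Any pairing of the libraries by replicate number was weak. Deviations of libraries with the same number had r from -0.06 to 0.14 (median 0.03). Those with different numbers had r from -0.19 to 0.05 (median -0.01). With the replicate block, eca-miR-126-3p in P vs. D had -1.33 with SE 0.53 and an adjusted p of 0.282 by limma, and no call of either arm changed. The 5p arm rests on 69 reads in all.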
